A study of Homo sapiens with 9 samples.

Results

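The genes described here encode the core machinery of RNA interference and microRNA silencing: DROSHA, DGCR8, DICER1, AGO1, AGO2, AGO3, AGO4, XPO5, TARBP2 and TNRC6A. A probe set, the group of short oligonucleotides with which the array reads 1 transcript, was taken as a member when the platform annotation gave it exactly 1 gene symbol and that symbol was one of these 10. The rule found 31 of the 54675 probe sets on the array, and they measured 9 of the 10 genes. DGCR8 was not measured under this rule, because its 4 probe sets carry the symbol of a microRNA gene inside it as well. Another 3 probe sets that share AGO2 with a second symbol were also not used.

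The samples came from HEK293, a human cell line derived from embryonic kidney, with 9 arrays in 3 groups of 3. Wild type cells had received no treatment, overexpression cells had been transfected with a plasmid that encodes MOF, and knockdown cells had been transfected with small interfering RNA against MOF. MOF, the product of KAT8, is a histone acetyltransferase that acetylates histone H4. The design text names controls treated with double-stranded RNA against EGFP, but none of the 9 arrays comes from such cells. Transfection and MOF level therefore cannot be told apart in a comparison with wild type. Both treated groups had been transfected, but with different nucleic acids. Nothing in the labels ties the replicates to separate cultures, so each p-value is set against a spread that may be technical only.

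In animal cells a microRNA is cut from its primary transcript in the nucleus by the Microprocessor, which joins the nuclease DROSHA to the RNA-binding protein DGCR8. Exportin-5, encoded by XPO5, carries the hairpin to the cytoplasm, where the nuclease DICER1 with its partner TARBP2 trims it to a duplex. An Argonaute protein keeps 1 strand as a guide, and TNRC6A, a GW182 protein, links the Argonaute to the enzymes that shorten and decap the target mRNA. A transfected small interfering RNA enters this machinery at the Argonaute step.

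The targeted gene was checked first. The brighter KAT8 probe set (221820_s_at) had a signal of 3318 ± 448 in wild type, 4695 ± 88.9 in overexpression and 552 ± 140 in knockdown cells (SD, n = 3 each), the last being 16.6% of the wild type mean. Its fall after knockdown was -2.61 ± 0.17 (log2 fold change ± SE, limma adjusted p = 4.7e-05), while the difference after overexpression was 0.51 ± 0.17 (limma adjusted p = 0.259, and 0.0478 with a term for the replicate 1 arrays). The dimmer probe set 214885_at fell to 33.4% of its wild type mean after knockdown (limma adjusted p = 0.00296). After overexpression it gave 0.11 ± 0.26 (log2 fold change ± SE, limma adjusted p = 0.910, and 0.854 with the term). Of 8 HEK293 markers 7 passed the filter on dim probe sets, LHX1 being the exception. Of 14 measured markers of blood, liver, fibroblast, endothelium and muscle, those above the filter were COL1A1 with signals from 1429 to 2819, HBB from 56.7 to 381.0 and PECAM1 from 127.7 to 314.2. Arrays of a group correlated at 0.925 to 0.934 in log2 signal. The poly-A spike-in probe sets were 2.22-fold brighter in replicates 2 and 3 than in replicate 1, in which each group has 1 array.

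After knockdown DROSHA and AGO4 fell, and AGO2 and TNRC6A rose, against wild type. Signals are linear array intensities, fold changes are differences of mean log2(signal + 1), and a probe set was called when its limma p, adjusted by Benjamini-Hochberg over all 27307 probe sets bright enough to test, was under 0.05. Of the 31 member probe sets 24 were bright enough, and 4 of these (16.7%) were called, 2 higher and 2 lower. Over all probe sets tested 15.7% were called, 6.82% higher and 8.89% lower, so the members' share lay near the background. The median log2 fold change of the 24 was 0.19, against 0.01 over all probe sets, and 18 of the 24 were above 0, against 51.0% of all. The 24 come from 9 genes, with 4 probe sets each from AGO1, AGO3 and TNRC6A. At the level of genes, with the brightest probe set standing for each, the median was 0.08, against -0.04 over all genes, and 4 of 9 genes were called, against 19.4% of 12036 genes. By that probe set DROSHA, AGO4, XPO5 and TARBP2 lay below 0 and the remaining genes above it. With the replicate number as a block, 11 of the 24 were called, 7 higher and 4 lower, where 28.0% of all probe sets were. In bulk RNA a lower level in every cell and fewer cells with the transcript cannot be told apart.

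Against overexpression the knockdown arrays showed the same 4 genes on the same sides and DICER1 higher as well. Here 6 of the 24 member probe sets (25.0%) were called, 4 higher and 2 lower, against 14.5% of all probe sets, 5.75% higher and 8.76% lower. The median of the 24 was 0.18, against -0.01 over all, and 17 of the 24 were above 0, against 48.4% of all. At the level of genes the median was 0.12, against -0.05 over all genes, and 5 of 9 were called, against 18.4% of all genes. Again DROSHA, AGO4, XPO5 and TARBP2 lay below 0 and the remaining genes above it. With the replicate block 9 of the 24 were called, against 26.9% of all probe sets. The 2 knockdown comparisons use the same 3 knockdown arrays, so their likeness is not independent evidence.

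After overexpression 0 of the 24 member probe sets were called by limma against wild type, where 0.476% of all probe sets were. At an unadjusted p under 0.05 there was 1, the brightest of DICER1, against 12.3% of all probe sets. With a term for the replicate 1 arrays the same DICER1 probe set was called as lower, where 4.06% of all probe sets were.

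**Figure D1:**
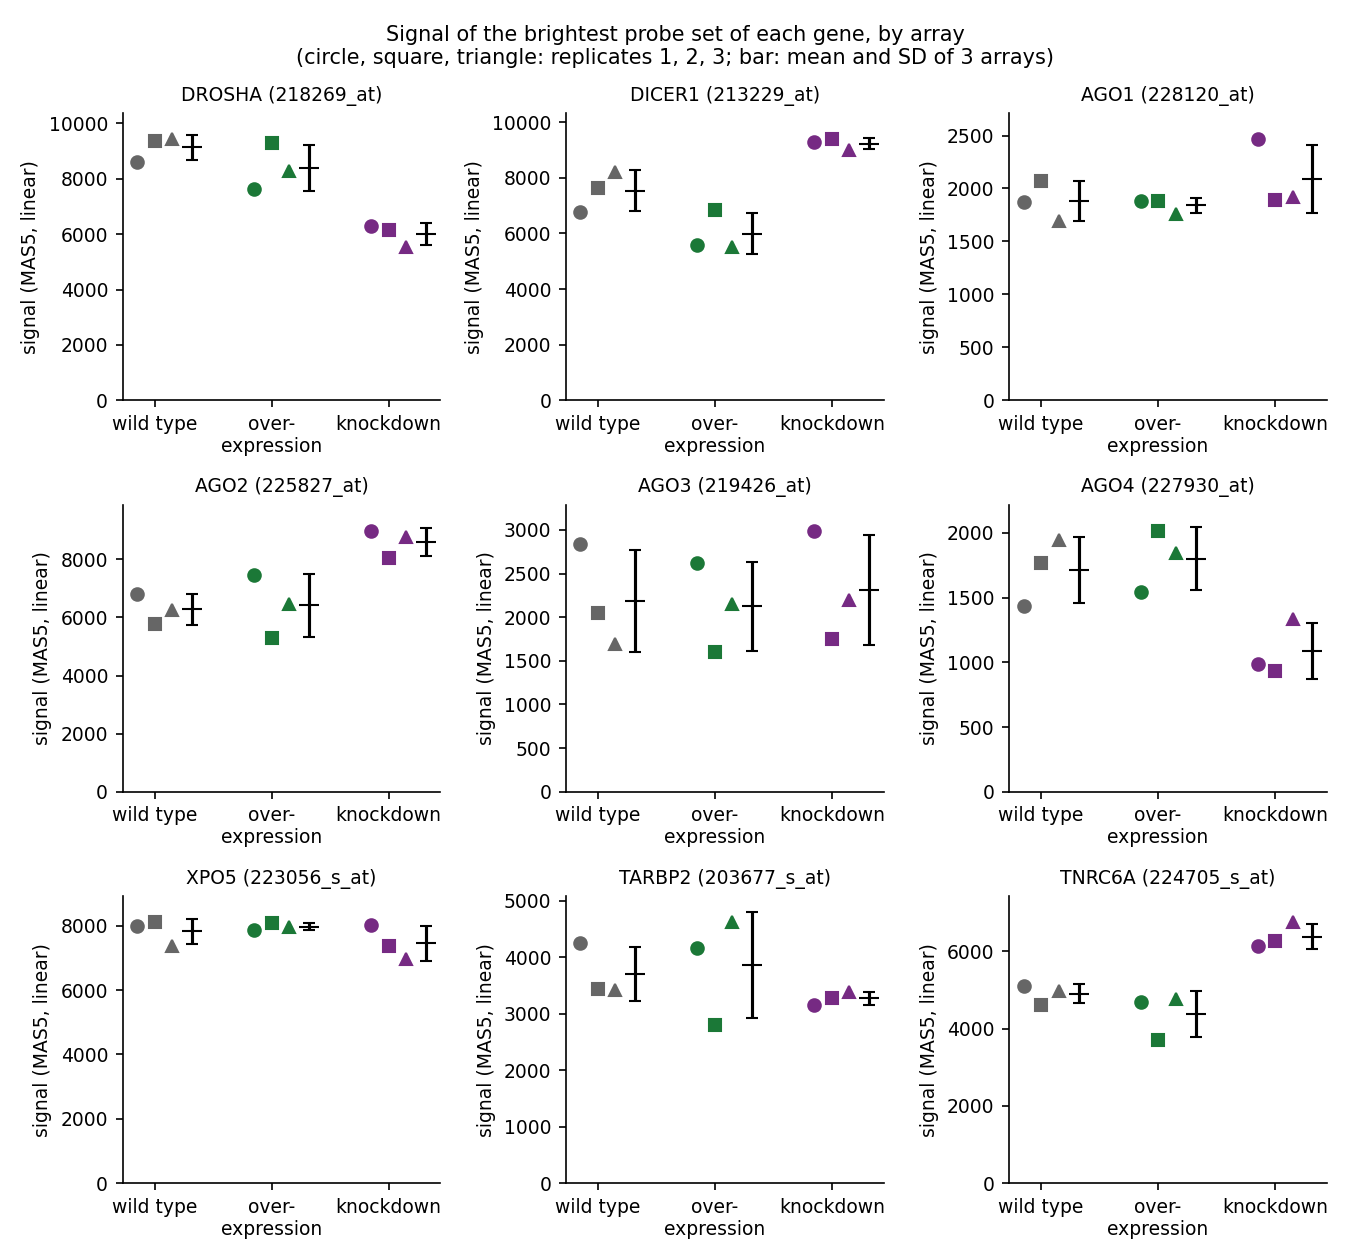
Signal (linear intensity, each axis from 0) of the brightest probe set of each of the 9 measured genes, with 1 point per array (circle, square and triangle for replicates 1, 2 and 3) and a bar for the mean ± SD of the 3 arrays of wild type, overexpression and knockdown cells. The 3 knockdown arrays lie below the other 6 for DROSHA and AGO4 and above them for DICER1, AGO2 and TNRC6A. The share of all genes separated in this way was not computed. In knockdown against wild type 34.7% of all genes had an unadjusted limma p under 0.05, a different measure that does not give this share.

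DROSHA, the nuclease that makes the first cut in the nucleus, was measured by 1 probe set, 218269_at. Its signal was 8615.5, 9370.1 and 9421.6 in the wild type arrays of replicates 1, 2 and 3, 7637.5, 9285.4 and 8283 in the overexpression arrays, and 6280.6, 6157.2 and 5537.4 in the knockdown arrays. All 3 knockdown arrays lay below all 6 others, and the wild type and overexpression arrays overlapped. Such separation is described here and for the genes below without its share over all genes, which was not computed. The mean was 9136 ± 451 (SD, n = 3) in wild type and 5992 ± 398 (SD, n = 3) after knockdown. That fall was 1.53-fold, a log2 difference of -0.61 ± 0.10 (SE, limma adjusted p = 0.00234). Against overexpression, with a mean of 8402 ± 830 (SD, n = 3), the knockdown was lower by a log2 difference of -0.49 ± 0.10 (SE, limma adjusted p = 0.00739). Overexpression against wild type gave -0.12 with a 95% interval from -0.33 to 0.08 (limma adjusted p = 0.645). Both knockdown calls held in all 6 fits that each left out 1 array, with adjusted p up to 0.0154 against wild type and 0.0349 against overexpression.

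For DROSHA, AGO4 and TNRC6A, which changed and have 1 start each in the RefSeq table, the 250 bases upstream of the start are shown to set the proximal promoters beside the expression values, with AGO1 added as the gene next to AGO4. They are from RefSeq on GRCh38.p14, read 5′ to 3′ on the gene's strand: DROSHA at chr5:31532094-31532343 (minus strand), AGO4 at chr1:35807766-35808015, AGO1 at chr1:35882959-35883208 and TNRC6A at chr16:24729401-24729650 (plus strand). Capitals mark any match, on either strand, to CCAAT, to the GC box GGGCGG, to the E-box CACGTG, to TATAAA and to the ETS core CCGGAA.
DROSHA: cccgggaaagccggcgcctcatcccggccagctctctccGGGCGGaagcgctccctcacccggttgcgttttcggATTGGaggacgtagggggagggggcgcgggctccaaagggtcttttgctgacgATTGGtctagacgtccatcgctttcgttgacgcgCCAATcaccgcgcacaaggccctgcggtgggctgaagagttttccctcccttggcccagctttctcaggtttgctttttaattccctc
AGO4: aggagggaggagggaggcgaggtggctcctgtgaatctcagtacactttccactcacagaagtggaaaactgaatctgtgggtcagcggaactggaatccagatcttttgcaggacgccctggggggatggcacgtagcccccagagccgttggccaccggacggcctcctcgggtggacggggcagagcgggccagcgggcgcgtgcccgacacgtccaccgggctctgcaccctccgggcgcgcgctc
AGO1: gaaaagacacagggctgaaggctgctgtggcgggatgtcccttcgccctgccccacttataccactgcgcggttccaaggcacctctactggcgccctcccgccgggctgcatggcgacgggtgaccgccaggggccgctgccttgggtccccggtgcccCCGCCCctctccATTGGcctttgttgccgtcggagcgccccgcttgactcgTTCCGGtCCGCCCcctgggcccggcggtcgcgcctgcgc
TNRC6A: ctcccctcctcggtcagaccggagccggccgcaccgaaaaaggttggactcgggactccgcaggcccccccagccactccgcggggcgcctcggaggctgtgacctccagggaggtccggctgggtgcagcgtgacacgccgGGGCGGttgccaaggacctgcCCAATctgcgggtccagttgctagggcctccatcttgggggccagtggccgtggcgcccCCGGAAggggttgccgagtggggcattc
The DROSHA window held 3 CCAAT matches and 1 GC box. TNRC6A had 1 CCAAT, 1 GC box and 1 ETS core, AGO1 had 1 CCAAT, 2 GC boxes and 1 ETS core, and the AGO4 window held none of the 5. Over 27305 promoter windows of the same length, 33.0% held CCAAT, 42.3% a GC box, 14.8% an ETS core, 11.1% TATAAA and 6.49% the E-box. The GC content was 62% for DROSHA, 66.4% for AGO4 and 71.6% for both AGO1 and TNRC6A, against a median of 58% over all windows. A match is a description of the letters only.

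XPO5, the export receptor of the hairpin, had 3 tested probe sets, and none was called in any comparison. The brightest, 223056_s_at, read 7983.5, 8112.2 and 7379.9 in wild type, 7869.4, 8076.9 and 7966.2 after overexpression, and 8026.4, 7361.8 and 6969.9 after knockdown. The 3 groups overlapped. The log2 fold change after knockdown was -0.07, with a 95% interval from -0.25 to 0.11 (limma adjusted p = 0.602). The dimmer 223055_s_at, with knockdown signals of 3328, 2975.5 and 3355.7 above wild type signals of 2884.7, 2605.6 and 2435.7, gave 0.29 (limma adjusted p = 0.138, and 0.0338 with the replicate block). The remaining probe set, 223057_s_at, gave 0.22 (limma adjusted p = 0.443).

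DICER1, the cytoplasmic nuclease, differed most clearly between the 2 treated groups. Its brightest probe set, 213229_at, read 6760.4, 7648.3 and 8220.4 in wild type, 5595.4, 6847.5 and 5521.3 after overexpression, and 9286.4, 9379.8 and 8999.1 after knockdown. The knockdown arrays lay above all 6 others, while 1 overexpression array reached into the wild type range. The means were 7543 ± 736, 5988 ± 745 and 9222 ± 198 (SD, n = 3 each) in that order. Knockdown was 1.55-fold above overexpression, a log2 difference of 0.63 ± 0.11 (SE, limma adjusted p = 0.00353), and the call held in all 6 fits that left out 1 array, with adjusted p up to 0.0215. Against wild type the knockdown gave 0.29 ± 0.11 (SE, limma adjusted p = 0.082), which passed with the replicate block (adjusted p = 0.0213). Overexpression gave -0.34 ± 0.11 (SE, limma adjusted p = 0.237, and 0.046 with a term for the replicate 1 arrays).

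A second DICER1 probe set, 212888_at, read 4917.7, 6473.7 and 6546.4 in wild type, 4298.8, 5540.2 and 5619.2 after overexpression, and 7119.9, 7203.7 and 7567.7 after knockdown. The knockdown arrays again lay above the rest. It was higher after knockdown than after overexpression by 0.51 ± 0.13 (log2 fold change ± SE, limma adjusted p = 0.0266), but without overexpression replicate 1 or without knockdown replicate 1, 2 or 3 the call was lost, with adjusted p up to 0.0896. Without the trend the adjusted p was 0.0593. Against wild type it gave 0.30 (limma adjusted p = 0.156, and 0.0176 with the replicate block). The third, 206061_s_at, gave 0.39 against overexpression (limma adjusted p = 0.0988, and 0.00501 with the block) and 0.19 against wild type (limma adjusted p = 0.43). The 3 probe sets thus had the same sign in each comparison. Their mean gave 0.26 ± 0.08 against wild type (SE, limma adjusted p = 0.0397), past the threshold that the brightest alone missed.

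TARBP2, the double-stranded RNA-binding partner of DICER1, had 2 tested probe sets, and neither was called. The brighter, 203677_s_at, read 4251.9, 3435.2 and 3413.8 in wild type, 4162.5, 2801.8 and 4619.8 after overexpression, and 3158.6, 3273.7 and 3384.1 after knockdown. The knockdown arrays lay just below the wild type arrays and inside the overexpression range. The log2 fold change against wild type was -0.17 ± 0.17 (SE, limma adjusted p = 0.537). The dimmer 239389_at read 491.7, 404.1 and 644.3, then 754.7, 438.4 and 539.4, then 412.5, 238.9 and 339.5 in the same order. It gave -0.64 ± 0.28 against wild type (SE, limma adjusted p = 0.141, and 0.0408 with the replicate block) and -0.80 ± 0.28 against overexpression (SE, limma adjusted p = 0.0763, and 0.0153 with the block).

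Of the Argonautes, AGO2 rose and AGO4 fell after knockdown, and AGO1 and AGO3 did not pass the test. AGO2 is the human Argonaute best known for cutting its target. Its single probe set, 225827_at, read 6812.3, 5775.8 and 6242.1 in wild type, 7471.4, 5302.5 and 6468.8 after overexpression, and 8983.4, 8043.9 and 8763.2 after knockdown. All 3 knockdown arrays were above the 6 others, and the overexpression arrays spanned the wild type range. The means were 6277 ± 519, 6414 ± 1085 and 8597 ± 491 (SD, n = 3 each). Knockdown was 1.37-fold above wild type, a log2 difference of 0.46 ± 0.12 (SE, limma adjusted p = 0.0289), and was above overexpression by 0.43 ± 0.12 (SE, limma adjusted p = 0.0365). Against wild type the call was kept only without wild type replicate 1, and was lost without wild type replicates 2 or 3 or any knockdown array, with adjusted p up to 0.111. Against overexpression it was kept only without overexpression replicate 1, and was lost without overexpression replicates 2 or 3 or any knockdown array, with adjusted p up to 0.106. It also missed the threshold against overexpression when dim probe sets were kept (adjusted p = 0.0543) or when only those 2 groups were fitted (0.0551), and in both comparisons without the trend (0.0632 against wild type and 0.0757 against overexpression). Overexpression against wild type gave 0.02, with a 95% interval from -0.25 to 0.29.

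AGO4 is an Argonaute not known for cutting its targets. Its brightest probe set, 227930_at, read 1436, 1763.5 and 1941.5 in wild type, 1539.2, 2015.5 and 1845.7 after overexpression, and 988.2, 934.9 and 1332.5 after knockdown. The knockdown arrays lay below the 6 others. The means were 1714 ± 256, 1800 ± 241 and 1085 ± 216 (SD, n = 3 each). Knockdown was 1.59-fold below wild type, a log2 difference of -0.67 ± 0.17 (SE, limma adjusted p = 0.0254), and below overexpression by -0.74 ± 0.17 (SE, limma adjusted p = 0.0169). The call against wild type was lost without wild type replicates 2 or 3 or knockdown replicates 1 or 2 (adjusted p up to 0.094). That against overexpression was lost without overexpression replicates 2 or 3 or knockdown replicates 1 or 2 (adjusted p up to 0.0685). The other tested probe set, 222842_at, with signals between 118.4 and 353.8 on all arrays, disagreed in sign, at 0.19 ± 0.39 against wild type (SE, limma adjusted p = 0.784). The mean of both gave -0.24 (limma adjusted p = 0.496) against wild type and -0.33 (limma adjusted p = 0.336) against overexpression, so that the fall of AGO4 rests on 1 probe set.

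AGO1 and AGO3 lie beside AGO4, the 3 being consecutive coding genes on chromosome 1 in the order AGO4, AGO1, AGO3. The brightest AGO1 probe set, 228120_at, read 1873.9, 2071.1 and 1697.5 in wild type, 1882.3, 1878.8 and 1761.1 after overexpression, and 2463.3, 1888.2 and 1922.6 after knockdown. The groups overlapped, and knockdown against wild type gave 0.15, with a 95% interval from -0.14 to 0.44 (limma adjusted p = 0.492). Another AGO1 probe set, 218287_s_at, pointed the other way. Its knockdown signals of 1346.2, 1269.9 and 1249.3 lay below wild type signals of 1967.4, 1739.6 and 1457.6, with a log2 difference of -0.41 ± 0.13 (SE, limma adjusted p = 0.0597, 0.0293 with the replicate block and 0.0358 without wild type replicate 3). The other AGO1 probe sets, 222576_s_at and 239036_at, gave 0.33 (limma adjusted p = 0.252) and 0.10 (limma adjusted p = 0.847), so the 4 did not share a sign.

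For AGO3 the brightest probe set, 219426_at, read 2834, 2045 and 1693.2 in wild type, 2622.3, 1604.2 and 2154.8 after overexpression, and 2990.2, 1749.9 and 2200.9 after knockdown. The replicate 1 array was the highest in each group, and the groups overlapped. Knockdown against wild type gave 0.08, with a 95% interval from -0.45 to 0.61 (limma adjusted p = 0.863). The other 3 AGO3 probe sets gave 0.07, 0.42 and 0.34, with limma adjusted p of 0.794, 0.245 and 0.28.

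TNRC6A, the GW182 scaffold, rose after knockdown. Its brightest probe set, 224705_s_at, read 5113.2, 4623.8 and 4978.2 in wild type, 4682.8, 3694.8 and 4758.8 after overexpression, and 6133.6, 6265.3 and 6757.3 after knockdown. The knockdown arrays lay above all others. The means were 4905 ± 253, 4379 ± 594 and 6385 ± 329 (SD, n = 3 each). Knockdown was 1.47-fold above overexpression, a log2 difference of 0.55 ± 0.11 (SE, limma adjusted p = 0.00784), and this call held in all 6 fits that left out 1 array, the adjusted p reaching 0.0376. Against wild type the rise was 1.30-fold, 0.38 ± 0.11 (log2 fold change ± SE, limma adjusted p = 0.0384). That call was lost when any 1 of the 6 arrays was left out (adjusted p from 0.0523 to 0.133), when dim probe sets were kept (0.0575) and without the trend (0.0711), while the replicate block gave 0.00472.

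The other 3 tested TNRC6A probe sets also had positive log2 differences between knockdown and wild type, and none was called. The probe set 234734_s_at gave 0.34 against wild type (limma adjusted p = 0.162, and 0.0407 with the replicate block) and 0.43 against overexpression (limma adjusted p = 0.0873, and 0.0141 with the block). For 1553346_a_at the signals were 416.0, 252.9 and 307.1 in wild type and 421.4, 519.3 and 642.0 after knockdown. That difference was 0.71 (limma adjusted p = 0.0733, and 0.0468 with the block), and 1.05 in replicates 2 and 3 alone (limma adjusted p = 0.021). The last, 224704_at, gave 0.18 (limma adjusted p = 0.291). The mean of all 4 gave 0.40 ± 0.12 (SE, limma adjusted p = 0.0312) against wild type.

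**Figure D2:**
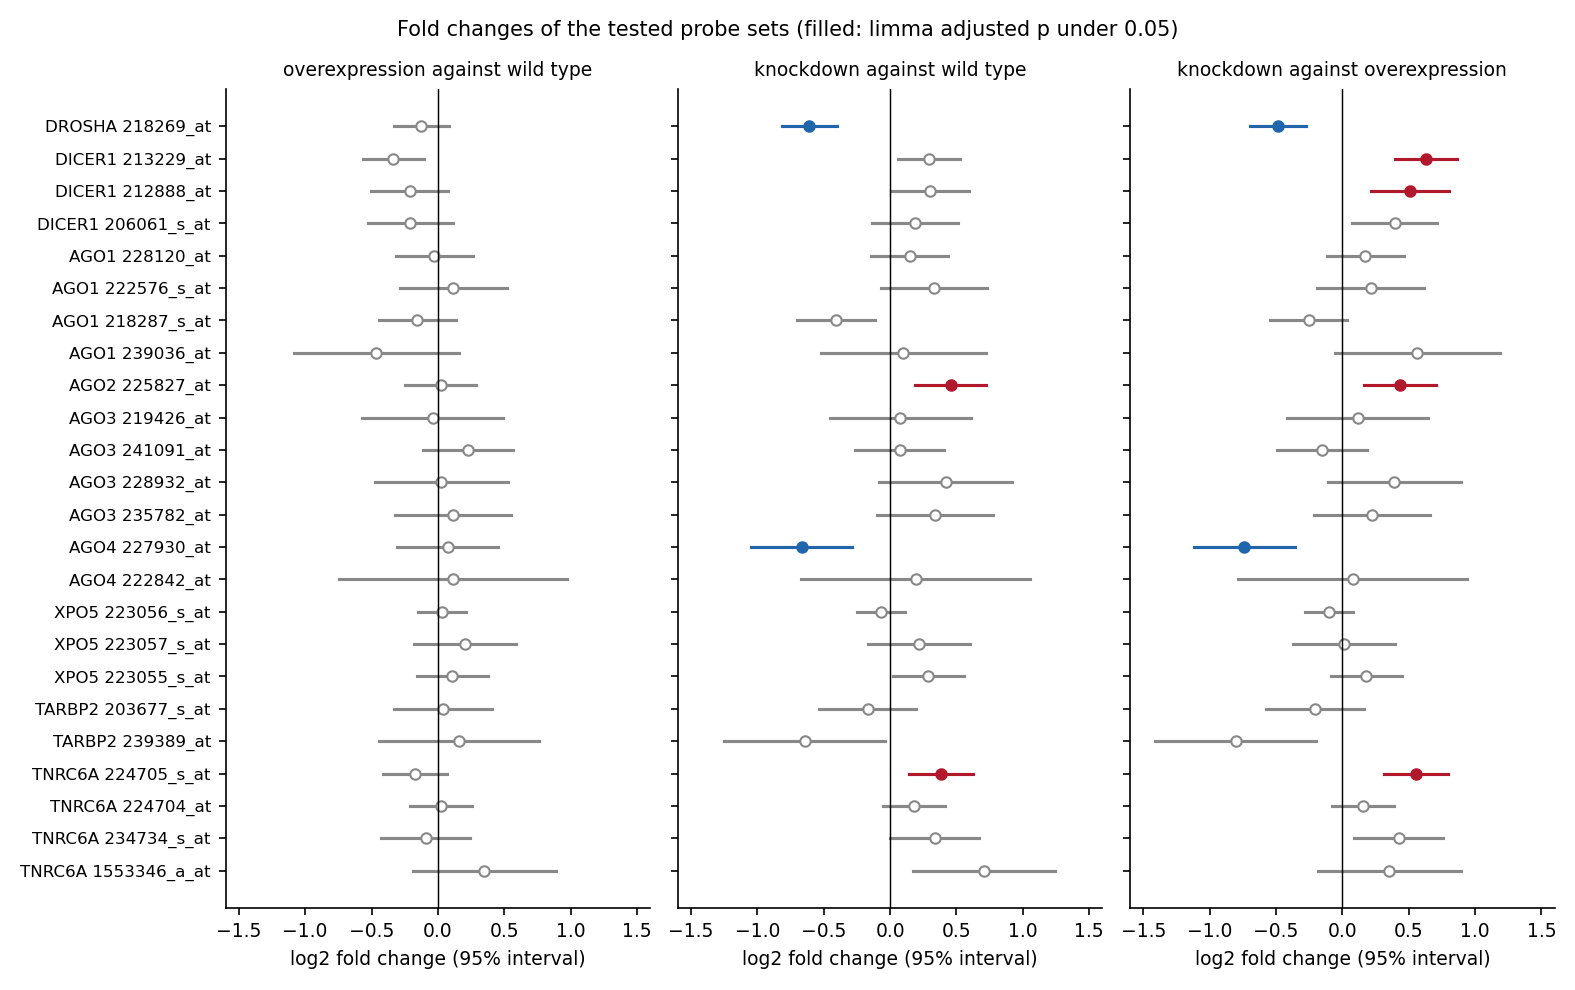
Log2 fold changes with 95% intervals (lines) of the 24 tested member probe sets in the 3 comparisons, filled where the limma adjusted p was under 0.05. DROSHA and AGO4 227930_at lie below 0 and AGO2 and TNRC6A 224705_s_at above 0 in both knockdown comparisons, and no probe set is filled for overexpression against wild type.

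Pairs of members were also compared within each array, as the difference of their log2 signals, which cancels any scaling of a whole array. The pairs were chosen after the values were seen, and 12 differences were computed. DROSHA minus DICER1 was 0.90 lower after knockdown than in wild type (a change of -0.90) and 0.21 higher after overexpression, with SDs of 0.08, 0.08 and 0.07 over the wild type, overexpression and knockdown arrays. None of these 3 groups overlapped another. AGO4 minus AGO2 changed by -1.12 after knockdown, without overlap, and by 0.05 after overexpression. AGO4 minus AGO1 changed by -0.81 after knockdown without overlap, whereas AGO4 minus AGO3 changed by -0.74 with overlap. The exact two-sided permutation test of 3 arrays against 3 cannot go below p = 0.1. That exact test gave p = 0.1 for each pair of groups without overlap, and 0.171 after Benjamini-Hochberg adjustment over the 12 permutation tests. For DROSHA with DICER1 and for AGO4 with AGO2, separation of the knockdown arrays was fixed in advance. Each of these genes had already separated those arrays, on opposite sides within a pair. The permutation test therefore adds no evidence for them in the knockdown comparisons.

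**Figure D3:**
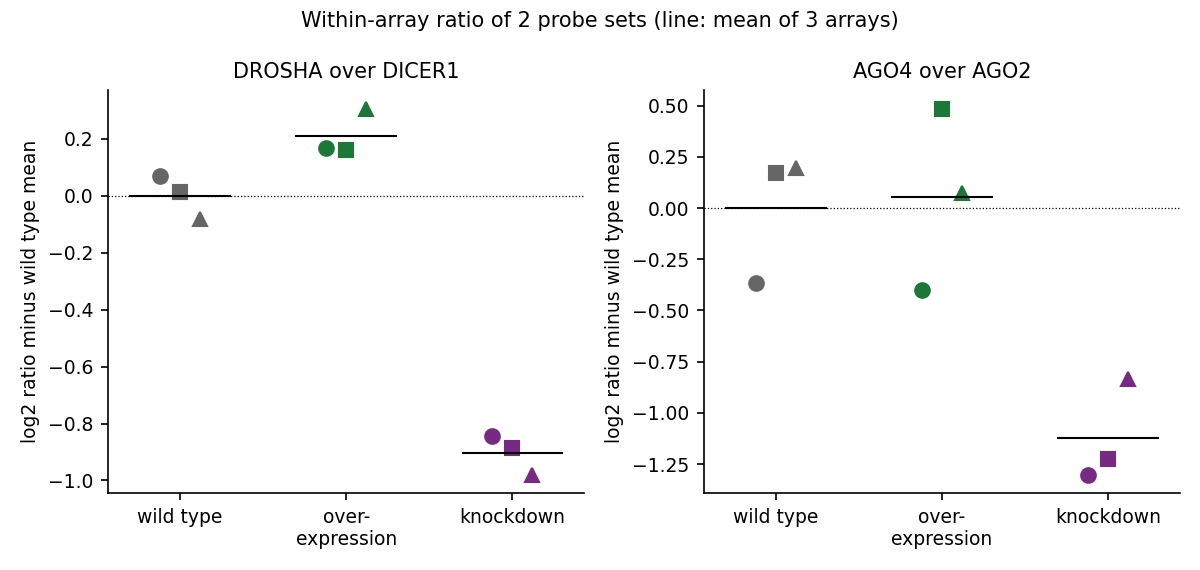
Difference of log2 signals between 2 members on the same array, set relative to the wild type mean, with 1 point per array (circle, square and triangle for replicates 1, 2 and 3) and a line at the group mean. DROSHA minus DICER1 and AGO4 minus AGO2 are lower on each knockdown array than on the other 6, by 0.90 and 1.12 on average against wild type. This separation was fixed in advance, because the genes of each pair separate these arrays singly, in opposite directions.

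The profile most like that of each called member over the 9 arrays was sought among 12035 other genes, by Pearson correlation of log2 signal. These 9 points include the differences between the groups and between replicate numbers. The closest to DROSHA was NUP37, a nuclear pore component (r = 0.994), and the closest to DICER1 was RBBP9, a serine hydrolase (r = 0.990). For AGO2 it was RCC1, the exchange factor of the GTPase Ran (r = 0.989), for AGO4 UNC50 (r = 0.993) and for TNRC6A PEBP1, known as an inhibitor of Raf kinase (r = 0.978). Among the members DROSHA and AGO2 had r = -0.93, AGO2 and TNRC6A r = 0.90, and DROSHA and AGO4 r = 0.82. DROSHA and TNRC6A had r = -0.87, AGO2 and AGO4 r = -0.85, and AGO4 and TNRC6A r = -0.81. All of these genes were called after knockdown against wild type, so the group differences enter each r.

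The other genes of the pathway were read from lists of known factors, 1 probe set per gene, and are read against the 19.4% of all genes called after knockdown. Of 15 tested factors of nuclear processing and precursor control, 3 rose and 1 fell after knockdown against wild type, with a list median of 0.03 against -0.04 over all genes. HNRNPA1, an RNA-binding protein that can remodel primary hairpins, rose by 0.56 (log2, limma adjusted p = 0.00252). Its probe set carries the suffix x_at, which marks probes that can bind other transcripts. SRRT, which ties the cap-binding complex to primary microRNAs, rose by 0.40 (limma adjusted p = 0.0114, and 0.053 without knockdown replicate 2). After overexpression SRRT gave 0.31 (limma adjusted p = 0.183, and 0.012 with a term for the replicate 1 arrays). Knockdown against overexpression gave 0.09 for SRRT (limma adjusted p = 0.527). LIN28B, which blocks the maturation of let-7, rose by 0.30 (limma adjusted p = 0.0145), with adjusted p up to 0.0563 without knockdown replicates 2 or 3. DIS3L2, the exonuclease that degrades the tailed let-7 precursor, fell by 0.86 from a mean signal of 952 to 526 (limma adjusted p = 0.00912).

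Against overexpression 3 of these 15 were higher and 2 lower in the knockdown, where 18.4% of all genes were called. LIN28B was higher by 0.46 (limma adjusted p = 0.00207) and DIS3L2 lower by a log2 difference of -1.26 (limma adjusted p = 0.00148), and both held without any 1 array. RAN, the GTPase on which exportin-5 depends, was higher by 0.27 (limma adjusted p = 0.0117, and 0.0556 without overexpression replicate 3).

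Of 19 tested partners of dicing and loading, 3 rose and 1 fell after knockdown, where 19.4% of all genes were called. The list median was 0.09. TRIM71, a let-7 target that also represses mRNAs, rose by 0.62, from 1420 to 2172 (limma adjusted p = 0.0138, and 0.0603 without knockdown replicate 2). FXR2, a relative of the fragile X protein, rose by 0.52 (limma adjusted p = 0.0338). After overexpression FXR2 gave a like 0.48 (limma adjusted p = 0.219, and 0.0407 with a term for the replicate 1 arrays). Knockdown against overexpression gave 0.04 for FXR2 (limma adjusted p = 0.894). FKBP4, an HSP90 co-chaperone, rose by 0.35 (limma adjusted p = 0.0213), and FKBP5, another HSP90 co-chaperone, fell by 0.31 (limma adjusted p = 0.0417). The FKBP4 call was lost without wild type replicates 2 or 3 or knockdown replicate 3 (reaching an adjusted p of 0.0839), and those of FXR2 and FKBP5 in 5 of 6 fits that left out 1 array (up to 0.11 and 0.133). Against overexpression TRIM71 was higher by 0.77 (limma adjusted p = 0.00525) and FXR1 by 0.39 (limma adjusted p = 0.00664), and both held without any 1 array. With the replicate block 8 of the 19 were called against wild type, where 33.4% of all genes were.

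Among 30 tested effectors that act with TNRC6 proteins on the target mRNA, 1 rose and 4 fell after knockdown, with a median of -0.02. Of all genes 19.4% were called in that comparison. BTG1, which binds the CCR4-NOT deadenylase, rose by 0.59 (limma adjusted p = 0.00308), and CNOT7, a catalytic subunit of CCR4-NOT, fell by 0.41 (limma adjusted p = 0.00313). Both held without any 1 array. PAN2, the nuclease of the other deadenylase, fell by 0.71, from 2782 to 1687 (limma adjusted p = 0.0155, and up to 0.0574 without knockdown replicates 2 or 3). XRN1, which degrades decapped mRNA, fell by 0.41 (limma adjusted p = 0.0328), and its call was lost when any 1 array was left out (up to 0.115). With the replicate block 17 of the 30 were called, against 33.4% of all genes in that fit.

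Against overexpression 6 of these 30 were higher and 4 lower in the knockdown, where 18.4% of all genes were called. BTG1 was higher by 0.58 (limma adjusted p = 0.00351). DCP2, the decapping enzyme, was higher by 0.37 (limma adjusted p = 0.0205), and its activator DCP1A lower, with a log2 difference of -0.42 (limma adjusted p = 0.019). The BTG1 call held without any 1 array, and those of DCP2 and DCP1A in 2 of 6 fits (adjusted p up to 0.0867 and 0.0706).

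The PIWI proteins, which carry small RNAs mainly in germ cells, were dim. PIWIL1 ranged from 3.7 to 107.7 over the 9 arrays, PIWIL2 from 67.1 to 251.0 and PIWIL4 from 18.0 to 222.2, and none passed the filter. Of 8 tested genes that sense or bind double-stranded RNA, 0 were called after knockdown against wild type by limma, with 2 at an unadjusted p under 0.05 (34.7% of all genes) and 2 called with the replicate block (33.4% of all genes). Those under the unadjusted threshold were IFIH1 and STAU2, both lower, at -0.76 and -0.40 (log2, limma adjusted p = 0.0618 and 0.0715). After overexpression IFIH1 gave -0.64 (limma adjusted p = 0.336). OAS3, a sensor of double-stranded RNA, had mean signals of 329 in wild type, 168 after overexpression and 457 after knockdown. Its overexpression mean lay below the signal of about 188 at the filter on dim probe sets. OAS3 was higher in knockdown than in overexpression, by 1.51 ± 0.33 (log2 fold change ± SE, limma adjusted p = 0.0128, and 0.0508 without knockdown replicate 2). Knockdown against wild type gave 0.51 for OAS3 (limma adjusted p = 0.325). After overexpression 0 genes of any list named here, the host transcripts below included, were called by limma. At an unadjusted p under 0.05, where 14.0% of all genes stood in that comparison, there were 7 of 15 nuclear factors, 4 of 19 dicing and loading partners, 1 of 30 effectors, 2 of 8 in the double-stranded RNA list and 0 of 15 hosts. The replicate block called 2 nuclear factors and 3 loading partners, against 4.95% of all genes.

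**Figure D4:**
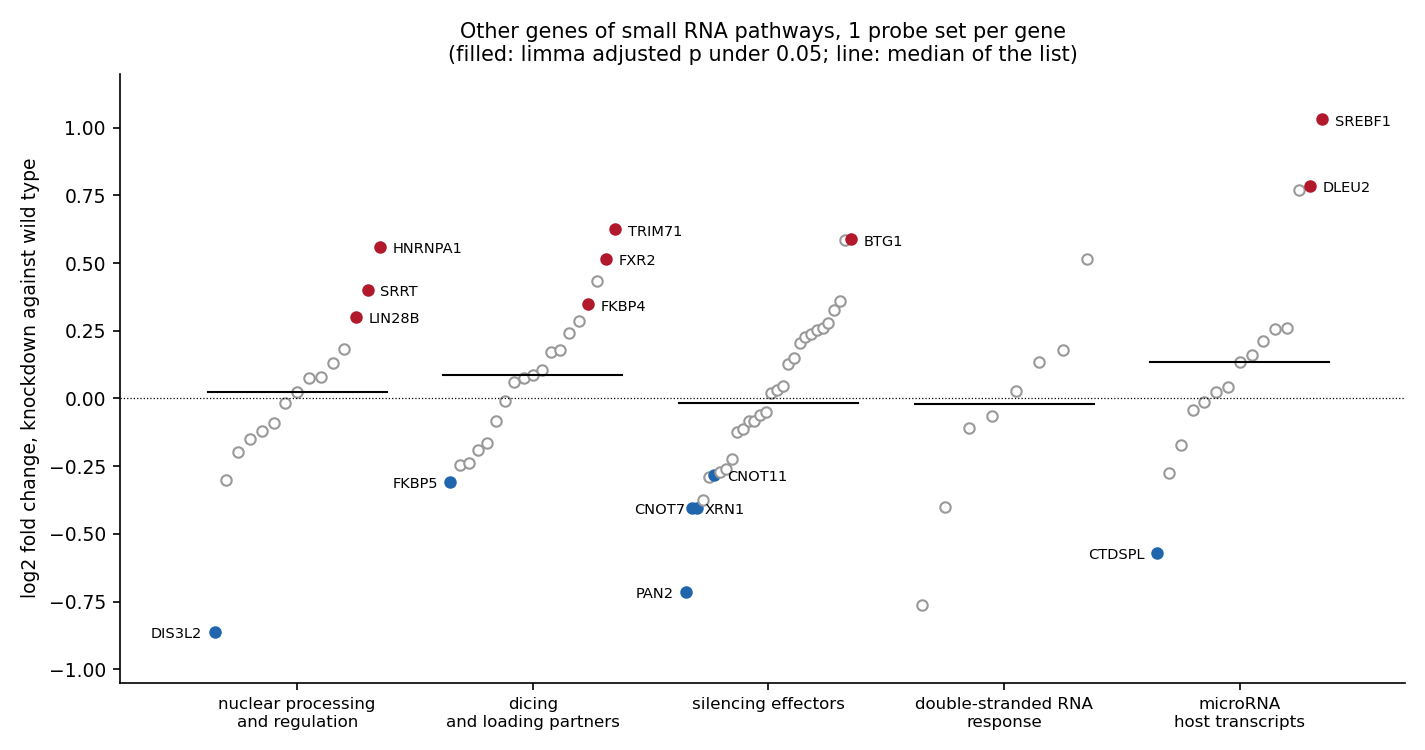
Log2 fold change after knockdown against wild type of each tested gene in 5 lists of small RNA pathway genes, with a line at the median of each list and filled points where the limma adjusted p was under 0.05. Called genes lie on both sides of 0 in the first 3 lists and among the host transcripts, and none is called in the list of double-stranded RNA response.

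Mature microRNAs were not measured, but some of their host transcripts were. Of 15 tested hosts 2 rose and 1 fell after knockdown, where 19.4% of all genes were called. The list median was 0.14. SREBF1, a transcription factor of lipid synthesis and the host of miR-33b, rose by 1.03, from 442 to 913 (limma adjusted p = 0.0117). DLEU2, the noncoding host of miR-15a and miR-16, rose by 0.78, from 1148 to 1940 (limma adjusted p = 0.0137), with the call lost without wild type replicate 2 or knockdown replicate 3 (reaching an adjusted p of 0.0546) and again a probe set with the suffix x_at. CTDSPL, a phosphatase gene with miR-26a inside it, fell by 0.57, from 2781 to 1870 (limma adjusted p = 0.0192), and was called in 2 of 6 fits that left out 1 array (up to 0.0746 without wild type replicates 1 or 2 or knockdown replicates 2 or 3). With the replicate block 5 of the 15 were called, a share near the 33.4% of all genes. Of the mature sequences in these 3 hosts, 4 from RefSeq on GRCh38.p14, are given to show guides that their transcripts can supply, with the seed, bases 2 to 8, in capitals.
hsa-miR-33b-5p: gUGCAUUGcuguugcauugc
hsa-miR-15a-5p: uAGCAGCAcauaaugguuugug
hsa-miR-16-5p: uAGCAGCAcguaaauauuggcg
hsa-miR-26a-5p: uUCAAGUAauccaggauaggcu
Of these 4 sequences miR-15a-5p and miR-16-5p share 1 seed, and the other two each have a different one. The same miR-26a-5p also lies in CTDSP2, and the same miR-16-5p in SMC4. Those hosts were tested and not called after knockdown against wild type (limma adjusted p = 0.775 and 0.212). The level of a host transcript does not give the level of the microRNA.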

How the data were processed

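Biotin-labelled total RNA was measured on 1 array per sample, per the labels' protocols. The authors deposited 1 linear intensity per probe set and array, computed with MAS5 according to the submitters' processing notes, with settings not given in the sources used here. Each array has a 2% trimmed mean of 1500.2, so these intensities do not show whether cells held more or less RNA in all. Samples were grouped by title. After 62 control probe sets were left out, probe sets whose mean log2(signal + 1) reached the median of all (7.56, a signal of about 188) were tested with limma 3.58.1 in R 4.3.3 (lmFit, eBayes with a trend), in 1 two-sided fit over 9 arrays with 6 residual degrees of freedom. The code was tested on simulated data. Alternatives changed normalization, pseudocount, filter, trend, arrays and batch terms. Those for the other lists and the within-array differences were added after seeing the data.

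Of 54675 probe sets 41091 had 1 symbol in the platform annotation, 1801 several and 11783 none, and 41037 matched a RefSeq gene of GRCh38.p14 by Entrez ID. The members and lists were chosen with earlier results of these data known. Named were all members, KAT8, up to 4 called genes of smallest p in each list and comparison, of which some are left out of the prose, and the gene most like each called member. Arrays of the same replicate number shared deviations from their group means (r = 0.083 to 0.447), those of replicate 1 the most (0.352 to 0.447). Different numbers also shared them, with r = 0.284 for wild type 3 and overexpression 2, and 0.180 for wild type 3 and knockdown 2. Numbers 2 and 3 are thus not shown to pair. Every same-number pair with a knockdown array was over 0.1, and blocked values stand beside those results where they change the call. The block takes its pairing from the labels' numbers. Arrays limit the precision by their number, 3 per group.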

Additional observations from a re-analysis of the deposited data

How the results depend on the processing

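Probe sets called after overexpression against wild type numbered 130, but 27 when only those 2 groups were fitted, 70 without the trend, 1109 with a term for the replicate 1 arrays, 220 in replicates 2 and 3 alone, 1022 with the replicate block and from 25 to 97 when 1 array was left out. Called members numbered 0, and 1 with the block or the term (DICER1). After knockdown against wild type the 4289 probe sets became 7637 with the replicate block, 7706 with the term and 2213 to 3653 with 1 array left out. The 4 members became 2 without the trend, 11 with the block, 8 with the term and 1 to 4 with 1 array left out. Against overexpression the 3963 became 7334 with the block, 7425 with the term and 2040 to 3289 with 1 array left out, and the 6 members became 3 to 5 with 1 array left out. The other settings tried, quantile normalization, a pseudocount of 32 and no filter among them, left these counts within 1.5 times. With the mean of all probe sets of a gene, 4 member genes were called in each knockdown comparison. Against wild type these were not the same genes, as AGO4 was lost (limma adjusted p = 0.496) and DICER1 gained (limma adjusted p = 0.0397). Against overexpression AGO4 was lost (limma adjusted p = 0.336). Of 1008 single-probe-set values under alternatives 950 stayed on their side of the threshold, but 845 of these were uncalled in both fits. A call was lost in 35 values, all of them called in the main fit, and gained in 23, and 0 called values changed sign. Of the 845 values uncalled in both, 44 changed sign. The cause of these shifts was not tested. Within overexpression and wild type the replicate numbers do not pair all arrays, since those of replicate 3 had r = 0.083.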

Other observations

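The 7 member probe sets below the filter belong to DICER1 (216260_at, 216280_s_at and 216281_at), AGO4 (219190_s_at and 1569408_at) and TNRC6A (233836_at and 243834_at). The TNRC6A probe set 243834_at read 197.6, 236.1 and 94.3 in wild type, 147.1, 37.2 and 35.9 after overexpression, and 190.4, 237.2 and 262.5 after knockdown. With no filter on dim probe sets its knockdown against overexpression gave a log2 difference of 1.95 ± 0.60 (SE, limma adjusted p = 0.0854). For the dim AGO4 probe set 219190_s_at, the signals were 194.5, 250.3 and 269.6 in wild type and 120.4, 199.6 and 139.9 after knockdown, with no filter a log2 difference of -0.65 ± 0.37 (SE, limma adjusted p = 0.392).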
